A study of Homo sapiens with 6 samples.

Results

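The S100 genes encode small calcium-binding proteins, and the 10 described here are S100A2, S100A3, S100A4, S100A6, S100A10, S100A11, S100A13, S100A14, S100A16 and S100P. They were taken by symbol from a table of 20356 genes, in which each of the 10 was found. The table holds 21 S100 genes in all, so 11 others were left outside the group and are used here for comparison. The libraries come from H1975, an EGFR-mutant human lung adenocarcinoma cell line. H1975 OR is the osimertinib-resistant derivative of that line, cultured with 1 µM osimertinib, an inhibitor of mutant EGFR, and was sequenced as 3 biological replicates. H1975 parental cells, sequenced as 3 replicates, are the line it derives from and were grown in the same serum-containing medium under normal conditions. There is 1 resistant derivative and the drug was present only in its cultures, so resistance, drug exposure and any other drift of this derivative cannot be told apart.

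S100 proteins are found in vertebrates and usually act as dimers. Each subunit has a pair of EF-hand loops, and calcium binding by the loops exposes a hydrophobic surface that docks onto partner proteins such as annexins, myosin heavy chains and ezrin. Some are also released from cells and bind surface receptors, of which AGER (RAGE) is the best known. Several mark particular states of epithelium, and S100A4 is widely used as a marker of mesenchymal and fibroblast-like cells.

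Of the S100 messages, S100A4, S100A3 and S100A16 were higher in H1975 OR than in parental cells. S100A14 was nearly lost there, and S100A2, S100A10, S100A13 and S100A11 were lower by smaller amounts. S100A6, the most abundant, differed by less than the spread between libraries, and S100P was under 1 FPKM in every library. Levels are FPKM, fragments per kilobase of transcript scaled to the mapped total, so they are per length and can be set beside each other between genes. Differences are H1975 OR minus parental on the log2(FPKM + 1) scale, tested with limma over 12107 genes that reached a mean of 1 FPKM in either group, with Benjamini-Hochberg adjustment and a threshold of 0.05 (FDR). Of the 10 members 9 were tested. Of these 9, 3 were higher and 5 lower at this threshold, beside 39.9% of all tested genes higher and 38.1% lower, together 78.0%. By at least 1 on the log2 scale 3 were higher and 3 lower, beside 9.95% and 9.39% of all tested genes, or 19.3% in both directions. The FPKM ranges of the groups did not overlap for 8 of the 9, against 79.8% of all tested genes. The median difference of the tested members was -0.51, against 0.01 for all tested genes. S100A14 was tested only because of its parental level. In bulk RNA, fewer cells expressing a gene and less RNA per cell cannot be told apart.

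**Figure D1:**
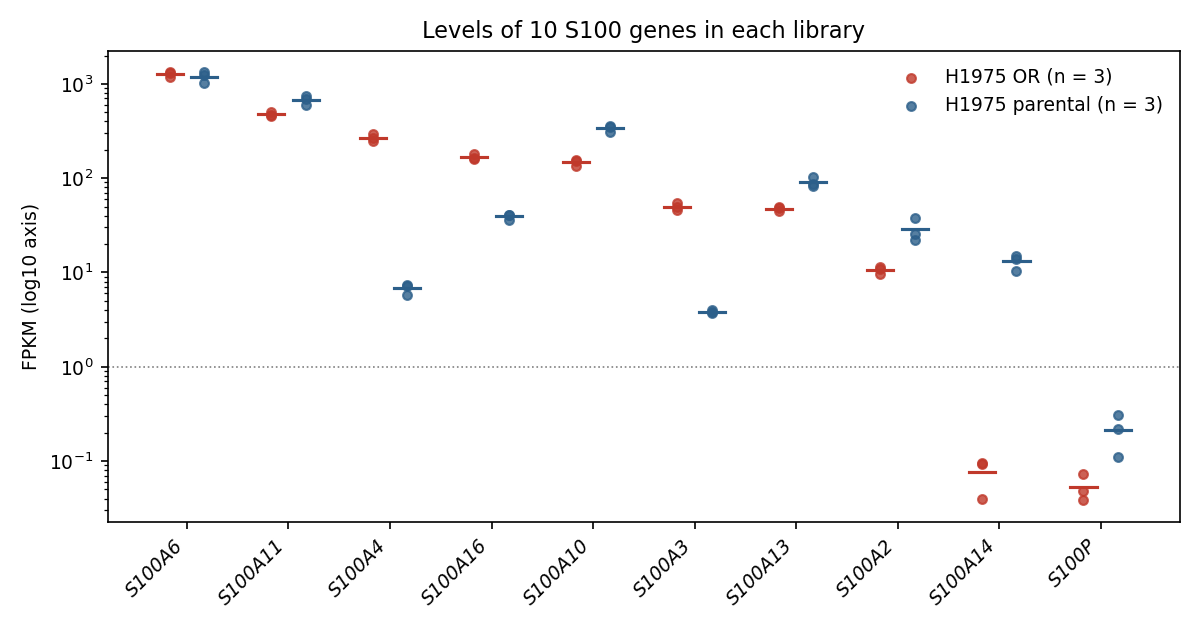
FPKM of the 10 S100 genes (log10 axis) in H1975 OR (red, left of each pair) and H1975 parental libraries (blue, right); each point is a library, each bar the mean of 3, and the dotted line is 1 FPKM. S100A4, S100A3 and S100A16 lie higher in H1975 OR, S100A14 lies below 0.1 FPKM there, and the points of S100A6 overlap.

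The libraries were estimated at 9.72 to 11.5 gigabases of mapped sequence for H1975 OR and 10.8 to 14.7 for parental cells, and depth in reads is unknown. Within each group, the same library was often the lowest or the highest for these genes. Parental replicate 2 had the lowest value of its group in all 9 tested members, and in all 11 tested S100 genes when S100A9 and S100A7 are added. It was the lowest of its group in 23.8% of all tested genes. Parental replicate 3 was the highest of its group in 7 of the 9 members, against 22.0% of all tested genes. In H1975 OR, replicate 2 was highest in 8 of the 9, against 42.2% of all tested genes. What lies behind this was not tested. Leaving out parental replicate 2, or any other library in turn, ended the call of none of the 8 members past the threshold. Without parental replicate 2 the difference of S100A6 turned to -0.017, against 0.09 with it.

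As a check of the labels, markers of lung adenocarcinoma epithelium were read in both groups. Of 8 such markers, 5 reached a mean of 1 FPKM in H1975 OR and 6 in parental cells. Summed over the 8, levels were 915 to 992 FPKM in H1975 OR and 2907 to 3426 FPKM in parental cells. All 6 tested markers were lower in H1975 OR, beside 38.1% of all tested genes. NKX2-1, the lung lineage factor, was listed at 0 in each H1975 OR library and tested only because of its parental level. EPCAM averaged 1.02 FPKM in H1975 OR and 211 FPKM in parental cells, and KRT19 4.58 FPKM in H1975 OR and 574 FPKM in parental cells. Their differences were the 2 lowest among all tested genes, and KRT7, KRT8 and KRT18 made up most of the H1975 OR sum. NAPSA and SFTPB, products of alveolar cells, were under 1 FPKM on average in both groups.

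S100A4 binds the heavy chain of non-muscle myosin IIA and is linked to cell motility (gene ENSG00000196154, GRCh37 1:153516089-153522612, minus strand). It stood at 245, 292 and 265 FPKM in H1975 OR replicates 1 to 3, against 7.39, 5.75 and 7.19 FPKM in parental replicates 1 to 3. Every H1975 OR library was thus far above every parental one. The means were 267 ± 23.4 FPKM in H1975 OR and 6.78 ± 0.897 FPKM in parental cells (SD, n = 3 each), a ratio of 39.4. The log2 difference was 5.11 ± 0.09 (SE; limma adjusted p = 1.02e-12), the fifth highest among the 12107 tested genes. By level, S100A4 was the third of the 10 in H1975 OR and the eighth in parental cells.

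Markers of fibroblasts, in which S100A4 is typically expressed, were read beside it. Their summed level over 8 genes was 17.6 to 21.4 FPKM in H1975 OR and 2.29 to 2.73 FPKM in parental cells. The 2 tested ones, COL1A1 and PDGFRB, were higher in H1975 OR, beside 39.9% of all tested genes. PDGFRB was tested only because of its H1975 OR level. DCN was listed at 0 in both groups, and LUM, FAP, THY1 and PDGFRA were each under 0.2 FPKM on average in both. COL3A1 averaged 0.285 FPKM in H1975 OR and 0.0125 FPKM in parental cells, with ranges apart, and was not tested. The part of such cells or programmes in the S100A4 level was not tested.

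S100A3 is a cysteine-rich member known mainly from the hair cuticle, where it binds zinc as well as calcium (ENSG00000188015, 1:153519805-153521848, minus strand). It had 45.7, 55.0 and 49.4 FPKM in H1975 OR, against 3.78, 3.72 and 4.01 FPKM in parental cells. The groups did not overlap, and the means of 50.04 ± 4.71 FPKM in H1975 OR and 3.83 ± 0.153 FPKM in parental cells (SD, n = 3 each) differed 13.1-fold. The log2 difference was 3.40 ± 0.07 (SE; limma adjusted p = 8.48e-13).

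In the deposited coordinates the span of S100A3 lies entirely within that of S100A4 on the same strand, covering 31.3% of it. In GENCODE v29, an annotation of a later build, these genes share no exonic bases. How the authors' counting divided reads in this stretch is not given in the sources used here, so the S100A3 level is uncertain. The ratio of S100A3 to S100A4 FPKM was 0.186, 0.189 and 0.187 in H1975 OR, against 0.511, 0.647 and 0.557 in parental cells. The ratio was therefore lower in every H1975 OR library, and the exact two-sided permutation test over 3 and 3 libraries gave p = 0.1, the smallest p it can reach.

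S100A16 is a widely expressed member that can pair with S100A14 (ENSG00000188643, 1:153579362-153585621, minus strand). It had 159.6, 179.9 and 166 FPKM in H1975 OR, against 41.0, 36.0 and 41.1 FPKM in parental cells. No library of H1975 OR came near the parental range. Means were 168 ± 10.4 FPKM in H1975 OR and 39.4 ± 2.94 FPKM in parental cells (SD, n = 3 each), a ratio of 4.28, with a log2 difference of 2.07 ± 0.07 (SE; limma adjusted p = 7.03e-11).

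S100A14, an epithelial member linked to cell adhesion and invasion, is the adjacent gene (ENSG00000189334, 1:153586731-153589462, minus strand), 1109 bases beyond S100A16, and it went the other way. Its values were 0.0398, 0.0931 and 0.0946 FPKM in H1975 OR, against 15.0, 10.5 and 13.9 FPKM in parental cells. The H1975 OR values rest on a mean coverage of 0.404, 0.854 and 1.03 reads per base, against 177, 93.6 and 127 in parental cells. The group means were 0.0758 ± 0.0312 FPKM in H1975 OR and 13.1 ± 2.36 FPKM in parental cells (SD, n = 3 each). The log2 difference was -3.70 ± 0.11 (SE; limma adjusted p = 7.05e-11), the 54th lowest among all tested genes. With a pseudocount of 0.1 FPKM in place of 1 it was -6.23, since the log2(FPKM + 1) scale understates the change of low values.

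The sequences just upstream of the adjacent genes S100A4 and S100A3, which rose together, and of S100A16 and S100A14, which moved apart, are shown so that the pairs can be compared. They are the 250 bases before the start of each gene from RefSeq (GRCh38.p14, minus strand, 5′ to 3′), at chr1:153545807-153546056 for S100A4, chr1:153549259-153549508 for S100A3, chr1:153613138-153613387 for the upstream of the pair of S100A16 starts, and chr1:153616326-153616575 for S100A14. Capitals mark CACCTG (an E-box bound by ZEB and Snail repressors), TGANTCA (AP-1) and TATAAA (a core promoter element). All motifs were read on both strands. In the deposited GRCh37 spans S100A4 starts upstream of S100A3, at 153522612 against 153521848 on the minus strand. By RefSeq S100A4 starts downstream of S100A3. The order of these starts thus differs between annotations, and the S100A4 window is not the sequence before its deposited start.
S100A4: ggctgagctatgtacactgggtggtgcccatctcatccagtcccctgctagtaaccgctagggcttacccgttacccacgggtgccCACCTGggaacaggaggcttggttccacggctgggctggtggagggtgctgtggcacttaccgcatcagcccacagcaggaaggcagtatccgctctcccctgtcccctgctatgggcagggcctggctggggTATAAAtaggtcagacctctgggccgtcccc
S100A3: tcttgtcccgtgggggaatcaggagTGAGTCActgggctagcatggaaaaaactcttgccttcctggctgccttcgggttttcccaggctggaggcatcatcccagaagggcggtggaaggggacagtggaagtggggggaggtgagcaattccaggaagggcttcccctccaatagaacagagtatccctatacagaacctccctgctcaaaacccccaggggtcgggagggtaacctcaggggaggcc
S100A16: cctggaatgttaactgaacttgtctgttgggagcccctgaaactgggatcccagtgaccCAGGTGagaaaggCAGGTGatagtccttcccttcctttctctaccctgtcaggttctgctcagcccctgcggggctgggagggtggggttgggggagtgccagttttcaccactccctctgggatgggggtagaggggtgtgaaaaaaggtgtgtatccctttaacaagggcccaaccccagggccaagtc
S100A14: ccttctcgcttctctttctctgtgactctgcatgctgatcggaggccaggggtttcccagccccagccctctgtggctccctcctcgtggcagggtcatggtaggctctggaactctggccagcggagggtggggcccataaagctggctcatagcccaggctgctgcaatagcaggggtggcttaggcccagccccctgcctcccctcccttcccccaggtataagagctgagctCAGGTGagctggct
S100A4 had CACCTG 164 bases and TATAAA 31 bases before its start, and S100A14 had the reverse complement of CACCTG 14 bases before its start. S100A16 held that E-box at 191 and 178 bases, and S100A3 held TGANTCA at 225 bases. All 10 members matched the RefSeq table, with 14 windows in all. CACCTG was found in 5 of the 14 windows, 1 each of S100A2, S100A4, S100A14, S100A16 and S100P, and in 17.5% of 35116 windows of the same length over all genes. It thus occurred before genes that were higher and genes that were lower. TGANTCA occurred in 2 of the 14 windows (S100A2 and S100A3) and in 6.57% of all windows. TATAAA occurred in 3 of the 14 (S100A4, S100A13 and S100P) and in 10.7% of all windows. GGGCGG, the GC box, occurred in 6 of the 14 and in 42.6% of all windows, which is about the same share. GGAATG, the TEAD motif, occurred in 1 of the 14 (S100A16) and in 11.9% of all windows. In the member windows no match of 1 motif overlapped a match of another. A match is a run of letters and does not show that a factor binds there.

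S100A10 is the member that has lost calcium binding. As p11 it forms a fixed complex with annexin A2 that binds plasminogen at the cell surface (ENSG00000197747, 1:151955391-151966866, minus strand). It had 136, 157 and 154 FPKM in H1975 OR, against 345, 311 and 361 FPKM in parental cells. All H1975 OR values were below the lowest parental value. The log2 difference was -1.18 ± 0.08 (SE; limma adjusted p = 2.22e-08), with means of 149 ± 11.2 FPKM in H1975 OR and 339 ± 25.4 FPKM in parental cells (SD, n = 3 each).

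S100A2 is found in the nuclei of basal epithelial cells (ENSG00000196754, 1:153533584-153540366, minus strand). It had 10.8, 11.4 and 9.74 FPKM in H1975 OR, against 25.7, 21.9 and 38.1 FPKM in parental cells. The groups were apart, but the parental libraries varied most here among the tested members, with an SD of 29.6% of the mean. The log2 difference was -1.31 ± 0.21 (SE; limma adjusted p = 0.00192), with means of 10.6 ± 0.848 FPKM in H1975 OR and 28.6 ± 8.46 FPKM in parental cells (SD, n = 3 each).

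S100A13 takes part in the release of FGF1 and interleukin 1 alpha, which lack a signal peptide (ENSG00000189171, 1:153591263-153606568, minus strand). It had 48.3, 49.5 and 44.9 FPKM in H1975 OR, against 86.0, 82.4 and 102 FPKM in parental cells. The groups did not overlap, and the log2 difference was -0.91 ± 0.08 (SE; limma adjusted p = 5.13e-07). Means were 47.6 ± 2.35 FPKM in H1975 OR and 90.3 ± 10.7 FPKM in parental cells (SD, n = 3 each). Its span overlaps S100A1 on the opposite strand, with 235 shared exonic bases in GENCODE v29, or 10.6% of its exonic bases. A further annotated gene, RP1-178F15.5, covers 50.7% of the span on the same strand. Strand use in the counting is not stated in the labels, so the S100A13 level is uncertain. S100A1, a member best known from heart muscle, was at 0.464 ± 0.0866 FPKM in H1975 OR and 0.439 ± 0.0608 FPKM in parental cells (SD, n = 3 each).

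S100A11, a partner of annexin A1, was the second most abundant member in both groups (ENSG00000163191, 1:152004982-152020383, minus strand). It had 469, 507 and 453 FPKM in H1975 OR, against 699.6, 598 and 744 FPKM in parental cells. The ranges were apart, and the decrease was the smallest of those called, at -0.51 ± 0.09 on the log2 scale (SE; limma adjusted p = 0.000133). Means were 476 ± 27.3 FPKM in H1975 OR and 680.4 ± 74.7 FPKM in parental cells (SD, n = 3 each). Its pseudogenes S100A11P1 and S100A11P2 were at most at 0.0644 FPKM in any library. NBPF18P overlaps 66.7% of its span on the opposite strand.

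S100A6, or calcyclin, was the most abundant member in each of the 6 libraries (ENSG00000197956, 1:153507075-153508720, minus strand). It had 1188, 1321 and 1302 FPKM in H1975 OR, against 1239, 1018 and 1332 FPKM in parental cells. The ranges overlapped, and the log2 difference of 0.09 had a 95% interval of -0.12 to 0.30 (limma adjusted p = 0.382). The means were 1270.5 ± 71.7 FPKM in H1975 OR and 1196 ± 161 FPKM in parental cells (SD, n = 3 each). With quantile normalization the difference was 0.27 and passed (limma adjusted p = 0.00698). An exact two-sided permutation test over the libraries gave p = 0.7 for it. For each of the other 9 members the exact permutation test gave p = 0.1, the smallest it can reach with 3 libraries against 3.

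S100P, a ligand of RAGE that binds ezrin inside the cell, is the only member outside chromosome 1 (ENSG00000163993, 4:6694796-6698897, plus strand). It had 0.0385, 0.0728 and 0.0479 FPKM in H1975 OR, against 0.220, 0.110 and 0.309 FPKM in parental cells, and was below the level tested. The ranges were apart, with every H1975 OR value under every parental one. Coverage was 0.409 to 0.707 reads per base in H1975 OR and 1.19 to 3.43 in parental cells, so both levels rest on few reads.

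**Figure D2:**
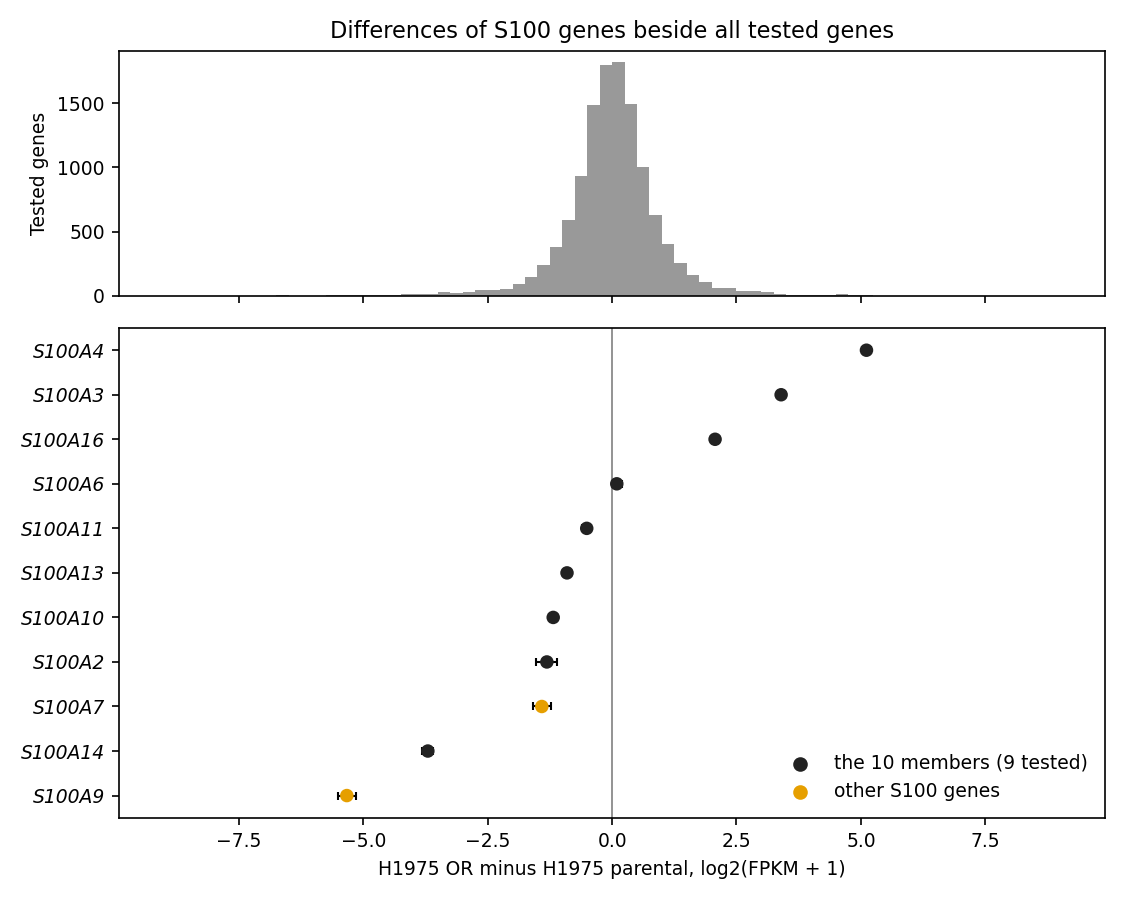
Upper panel, number of tested genes by difference between H1975 OR and H1975 parental libraries in log2(FPKM + 1). Lower panel, the same difference with its SE for the 9 tested members (black) and the 2 other tested S100 genes (orange); S100A4 at 5.11 and S100A9 at -5.33 lie in opposite tails, and S100A6 lies at 0.09.

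The order of levels changed between the groups while the sum did not separate them. In H1975 OR the order was S100A6, S100A11, S100A4, S100A16, S100A10, S100A3, S100A13, S100A2, S100A14 and S100P. The ranges of neighbours in that order did not overlap, except between S100A3 and S100A13 and between S100A14 and S100P. In parental cells the order was S100A6, S100A11, S100A10, S100A13, S100A16, S100A2, S100A14, S100A4, S100A3 and S100P, with overlap only between S100A16 and S100A2. Together the 10 took 0.567 ± 0.0184% of all TPM (transcript abundance scaled to a common total) in H1975 OR and 0.545 ± 0.0663% in parental cells (SD, n = 3 each). Their summed share was 0.548%, 0.585% and 0.569% in H1975 OR, against 0.554%, 0.474% and 0.606% in parental cells, so the ranges overlapped. S100A4 made up 10.9 ± 0.358% of this sum in H1975 OR and 0.283 ± 0.0153% in parental cells. S100A16 made up 6.90 ± 0.110% in H1975 OR and 1.65 ± 0.0853% in parental cells. S100A10 made up 6.09 ± 0.196% in H1975 OR and 14.2 ± 0.644% in parental cells. S100A6 made up 52.1 ± 1.03% in H1975 OR and 49.8 ± 0.908% in parental cells (SD, n = 3 each throughout).

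**Figure D3:**
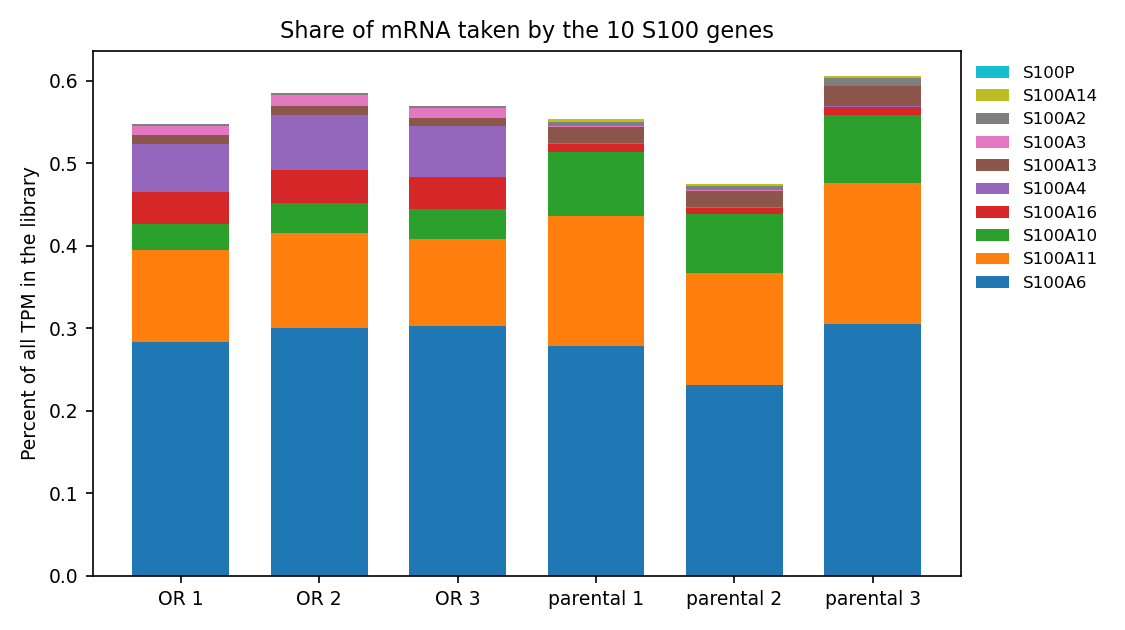
Percent of all TPM in each library taken by the 10 S100 genes, H1975 OR libraries on the left and H1975 parental libraries on the right. Bars reach 0.548% to 0.585% in H1975 OR and 0.474% to 0.606% in parental cells, and S100A4 (purple) and S100A16 (red) are visibly thicker in H1975 OR.

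Among the 11 other S100 genes, 2 reached the level tested, each through its parental values only. S100A9, a subunit of the neutrophil protein calprotectin (1:153330330-153333503), had 0.273, 0.584 and 0.367 FPKM in H1975 OR, against 50.8, 45.9 and 72.9 FPKM in parental cells. The groups were far apart, with a log2 difference of -5.33 ± 0.18 (SE; limma adjusted p = 3.54e-07). S100A7, or psoriasin (1:153430220-153433177), had 0.0578 FPKM in H1975 OR replicate 2 and was listed at 0 in replicates 1 and 3, against 1.57, 1.15 and 2.61 FPKM in parental cells (limma adjusted p = 0.000169). S100A8, the partner of S100A9, stayed under 1 FPKM in all libraries, at 0 in H1975 OR replicates 1 and 2 and 0.0478 FPKM in replicate 3, against 0.328, 0.424 and 0.677 FPKM in parental cells. S100A9 therefore stood without S100A8 at a like level in parental cells. S100A5, which lies between S100A6 and S100A4, had 0.284, 0.610 and 0.665 FPKM in H1975 OR, against 0.1995, 0.146 and 0.0840 FPKM in parental cells, and was not tested. S100B, S100Z and S100A7L2 were listed at 0 in all 6 libraries.

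Myeloid cells, which express S100A8 and S100A9 strongly, were checked by 8 markers. PTPRC, LYZ, ITGAM, AIF1 and TYROBP were under 0.1 FPKM on average in both groups. Of the 3 tested, CD14 and CD68 were higher in H1975 OR and CSF1R lower, beside 39.9% and 38.1% of all tested genes. The summed level of the 8 was 69.9 to 79.8 FPKM in H1975 OR and 27.96 to 31.2 FPKM in parental cells. Squamous markers, read beside S100A2 and S100A7, were lower in H1975 OR for each of the 3 tested (KRT10, TP63 and IVL), against 38.1% of all tested genes. CSF1R and IVL were tested only because of their parental level. KRT5, KRT14 and KRT1 were under 0.1 FPKM on average in both groups. Summed over 7 genes, the squamous markers stood at 11.8 to 12.7 FPKM in H1975 OR and 21.4 to 22.1 FPKM in parental cells. KRT10 made up most of this, averaging 11.1 FPKM in H1975 OR and 15.5 FPKM in parental cells. The part of these genes in the S100 results was not tested. Of 5 melanocyte and glia markers only PMEL was tested, and only because of its H1975 OR level. PMEL averaged 1.69 FPKM in H1975 OR and 0.999 FPKM in parental cells. It was called higher (limma adjusted p = 0.00588), beside 39.9% of all tested genes. SOX10 was under 0.1 FPKM on average in both groups.

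On chromosome 1, S100 genes that rose and fell lie side by side. From S100A6 to S100A13 the genes occupy 99.5 kb, and along this stretch S100A6 was not called, S100A4 and S100A3 were higher, S100A2 was lower, S100A16 higher, and S100A14 and S100A13 lower in H1975 OR. The whole span from S100A10 to S100A13 with 1 Mb on each side held 110 genes of the table outside the family, 51 of them tested. Of these, 21 were higher and 15 lower in H1975 OR, or 70.6% called against 78.0% of all tested genes, with a median difference of 0.06. The neighbours with the largest changes were ATP8B2, a phospholipid flippase (3.41), and MLLT11 (3.34) in the upward direction. SLC27A3, of the fatty acid transport family (-2.44), and CGN, the tight junction protein cingulin (-2.34), had the largest decreases.

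**Figure D4:**
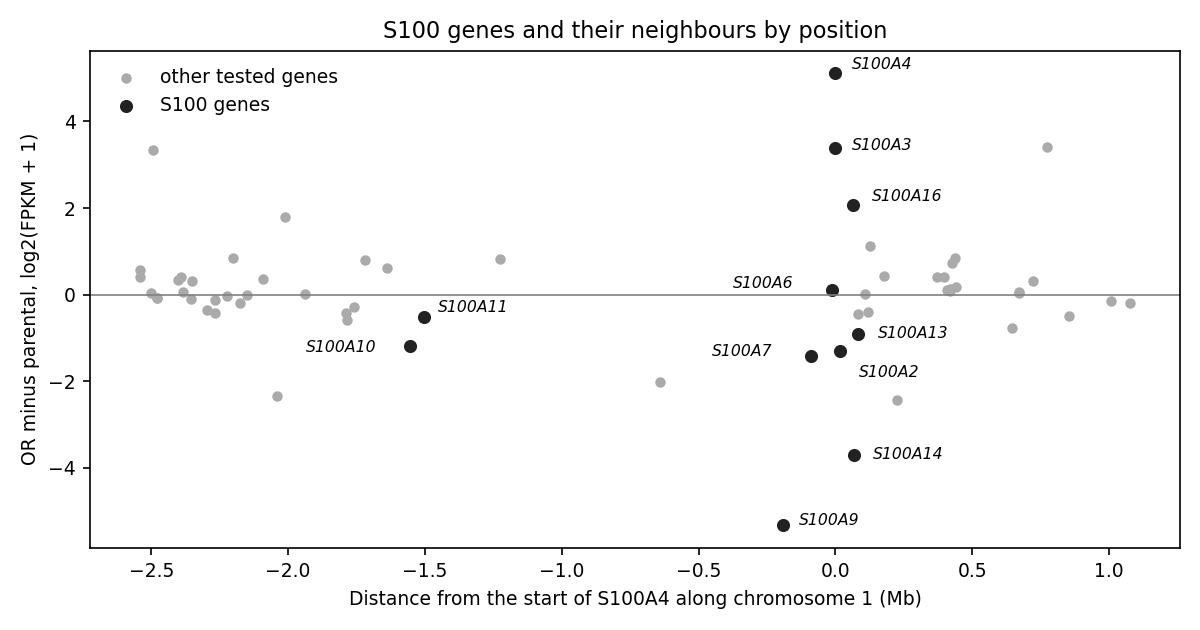
Difference between H1975 OR and H1975 parental libraries in log2(FPKM + 1) for each tested gene of the chromosome 1 region, by the distance in Mb of its 5′ end from that of S100A4. S100 genes (black) near 0 Mb range from -5.33 to 5.11. Of the 51 other tested genes (grey), 21 were higher and 15 lower, or 70.6% called against 78.0% of all tested genes.

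Annexins are the classical partners of S100 proteins at membranes. Of 13 annexin genes 11 were tested, and 9 were lower and 2 higher in H1975 OR, beside 38.1% and 39.9% of all tested genes. Their median difference was -0.49. ANXA2, the partner of S100A10, had 353, 400.3 and 352 FPKM in H1975 OR, against 909, 885 and 924 FPKM in parental cells, with a log2 difference of -1.30 ± 0.07 (SE; limma adjusted p = 3.72e-09). ANXA2 and S100A10 were thus both lower in all H1975 OR libraries. ANXA1, the partner of S100A11, fell by 0.65 and ANXA9 by 0.93 on the log2 scale. ANXA6, which binds cholesterol-rich membranes, had 42.6, 48.8 and 52.5 FPKM in H1975 OR, against 3.27, 3.01 and 3.45 FPKM in parental cells, a log2 difference of 3.52. ANXA5 rose by 0.47.

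The S100A10 complex converts plasminogen together with activators and their inhibitors. Of 7 genes on this list, which also holds DLC1, whose protein binds S100A10, 6 were tested, with 3 higher and 3 lower, beside 39.9% and 38.1% of all tested genes. The lower count was 2 with any H1975 OR library left out. SERPINB2 and DLC1 were tested only because of their H1975 OR level. With 1 FPKM required in both groups these genes were not tested, and 1 of the 4 tested was higher. PLAT, tissue plasminogen activator, had 39.9, 51.7 and 48.4 FPKM in H1975 OR, against 4.55, 3.93 and 5.35 FPKM in parental cells. PLAU, urokinase, had 18.9, 21.9 and 21.5 FPKM in H1975 OR, against 109, 94.95 and 117 FPKM in parental cells. The activators therefore differed in opposite directions, by 3.09 and -2.31 on the log2 scale. PLAUR, the urokinase receptor, fell by 2.43. SERPINB2, an inhibitor of both activators, had 23.0, 31.9 and 26.3 FPKM in H1975 OR, against 0.0416, 0.0641 and 0.0439 FPKM in parental cells (log2 difference 4.73). DLC1 differed by 3.22.

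Of 7 receptors of extracellular S100 proteins 4 were tested, 3 higher and 1 not called, or 75% called against 78.0% of all tested genes. MCAM, a melanoma cell adhesion molecule, differed by 2.21, and BSG, basigin, was at 490 to 551 FPKM in H1975 OR and 203 to 224 FPKM in parental cells. AGER itself was at 0.633 ± 0.134 FPKM in H1975 OR and 0.506 ± 0.141 FPKM in parental cells (SD, n = 3 each), below the level tested, with overlapping ranges. Of 16 intracellular partners 5 were higher, 5 lower and 6 not called, so 62.5% were called against 78.0% of all tested genes. MYH9, the heavy chain bound by S100A4, was at 244 ± 4.21 FPKM in H1975 OR and 186 ± 4.22 FPKM in parental cells (log2 difference 0.39). Its paralogue MYH10 was at 0.287 ± 0.0192 FPKM in H1975 OR and 17.9 ± 1.32 FPKM in parental cells (-3.88; all SD, n = 3 each). MYH10 was tested only because of its parental level. With 1 FPKM required in both groups, MYH10 was not tested and 4 of 15 tested intracellular partners were lower. The liprin gene PPFIBP1 differed by 0.67. SUGT1, a co-chaperone bound by S100A6, differed by -1.36. The S100P partners EZR (-0.54) and IQGAP1 (-0.33) fell, and S100PBP rose (0.25). CACYBP, the calcyclin-binding protein, had a difference of -0.44 and did not pass (limma adjusted p = 0.0597).

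**Figure D5:**
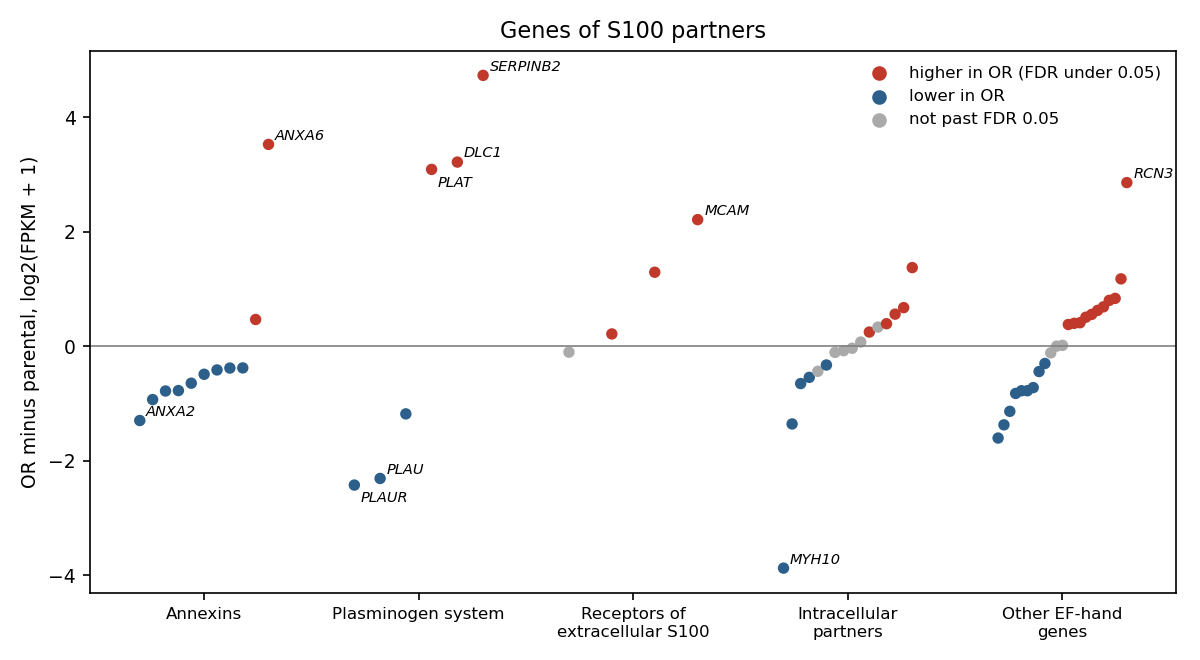
Difference between H1975 OR and H1975 parental libraries in log2(FPKM + 1) for each tested gene of 5 lists; red points are higher and blue points lower in H1975 OR at an FDR under 0.05, grey points did not pass. Of the annexins 9 of 11 are lower, PLAT and SERPINB2 lie opposite to PLAU and PLAUR, and MYH10 is at -3.88.

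Of 25 other EF-hand calcium-binding genes outside the S100 family 23 were tested, with 11 higher and 9 lower, or 87.0% called against 78.0% of all tested genes, and a median difference of 0.01. RCN3 (2.86), a chaperone-like protein of the secretory pathway, and NUCB2 (1.18), a Golgi protein, had the largest increases. LCP1 (-1.60), which bundles actin, and GCA (-1.37), grancalcin, had the largest decreases. LCP1 was tested only because of its parental level. With 1 FPKM required in both groups, LCP1 was not tested and 8 of 22 tested other EF-hand genes were lower. Of 7 genes that fuse an S100 domain to a long repeat, 1 was tested, only because of its H1975 OR level, the filaggrin gene FLG, at 1.04 ± 0.0323 FPKM in H1975 OR and 0.158 ± 0.0207 FPKM in parental cells (SD, n = 3 each).

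The genes whose values over the 6 libraries were closest to those of S100A4, by the Euclidean distance of centred log2(FPKM + 1), were QPRT at 0.35, BDKRB1 at 0.36 and ANKRD1 at 0.40. Among the 3 closest to S100A14 were CACNG4 at 0.22 and CYP24A1 at 0.35. CACNG4 was listed at 0 in all H1975 OR libraries and stood at 12.8, 11.2 and 13.1 FPKM in parental cells. This likeness rests mainly on the difference between the groups.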

How the data were processed

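RNA libraries of H1975 OR and H1975 parental cells (3 each) were grouped by sample title. The submitters' processing notes name GRCh37 and DESeq, without a role or version. The sources used here do not give the aligner, the counting tool or strand use. The authors deposited FPKM for 20356 genes, and, per the file headers, TPM and coverage (a signal of mean reads per base) in a file for each library. From 1 to 4 genes a library were unequal between both sources at a tolerance of 1e-05 FPKM. Mapped gigabases were estimated from the highest ratio of coverage to FPKM that many genes share. Without read counts no counting interval can be given.

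The test used limma 3.58.1 (R 4.3.3) on log2(FPKM + 1) of the 12107 genes averaging 1 FPKM or more in 1 group or both. It was two-sided, had group alone in the model, used trend and robust moderation, and was adjusted by Benjamini-Hochberg over all of them. The series describes the replicates as biological. The p-values set the group difference against the spread among these libraries, moderated over genes. All H1975 OR libraries come from 1 derivative, so spread between separately derived resistant lines is not covered. Tested on simulated data for this comparison and 12107 genes, the fit recovered 100% of genes changed by 0.5 and by 1 on the log2 scale, and 4.76% of its calls fell on unchanged genes. The simulated noise was normal, with an SD smoothed over genes of like level, so unusually variable genes were not represented. Few genes were changed, none at the lowest levels, whereas 78.0% were called in the data. The recovered share therefore does not apply to genes that vary widely between libraries.

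The members, lists and alternatives were chosen with earlier results of these data known. Named were all members, other S100 genes averaging 1 FPKM or more, the 2 largest called changes in each direction of each list, the 3 closest genes to S100A4 and S100A14, and known partners. PLAT, S100 genes under 1 FPKM, and the singled-out markers were named after their values were seen. Alternatives changed the pseudocount, the filter, the scaling, the unit, the moderation, the block and the libraries included. Gene coordinates are GRCh37 from the deposited files, 1-based, and upstream sequences are from RefSeq. A few genes that these rules name are not reported here. Protein sequences were not used here.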

Additional observations from a re-analysis of the deposited data

How the results depend on the processing

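The 8 called members kept direction and call under every alternative in which they were tested: pseudocounts of 0.1 and 0.5 FPKM, no filter, a filter in both groups, median-of-ratios scaling, quantile normalization, TPM, limma without trend or robust moderation, the replicate block, and each library left out. S100A14 could not be tested under the filter in both groups. S100A4 ranged from 5.01 to 5.29, S100A3 from 3.33 to 3.67, S100A16 from 2.01 to 2.14 and S100A14 from -6.23 to -3.61. S100A6 passed under quantile normalization (0.27, adjusted p = 0.00698), and ranged from -0.017 (without parental replicate 2) to 0.18 with libraries left out. Without a filter S100P, under 1 FPKM in every library, also passed (-0.20, limma adjusted p = 0.0252). This gave 6 lower of 10 members tested, beside 5357 lower of 18038 genes.

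Of the other S100 genes, 8 were tested without a filter, with 1 higher and 4 lower. Over all genes 5657 of 18038 were higher there and 5357 lower. With TPM 5 were tested, with 1 higher and 3 lower, beside 5444 and 4728 of 12971 genes. When 1 FPKM was required in both groups, none of the other S100 genes could be tested. Of the 4 plasminogen list genes tested under that filter 1 was higher. Without a filter 26 of 82 tested neighbours on chromosome 1 were lower, against 15 of 51 in the main test. Over all genes 5357 of 18038 were lower without a filter. With libraries left out, receptors counted as lower ranged from 0 to 1. The scaling alternatives shifted the median of all tested genes by less than 0.1 on the log2 scale.

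The groups share replicate numbers. Deviations of same-numbered libraries correlated at -0.135, 0.0761 and 0.099, and those of differently numbered ones at -0.161 to 0.0782. These values show no pairing by number, but with 3 libraries a group they cannot exclude it. With the replicate block, 3 members were higher and 5 lower as before, and over all genes 4805 were higher and 4617 lower. Levels below about 0.1 FPKM rest on few reads.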
